A study of Mus musculus with 4 samples.

Results

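The nuclei described here are a set of inhibitory neurons of the mouse spinal dorsal horn chosen by the summed UMIs of 6 genes, Nxph1 and Pax8 among them. A nucleus was a member when it had at least 1 UMI (unique molecular identifier, a counted RNA molecule) of Gad1, Gad2, Slc32a1 and Slc6a5 together and no UMI of Slc17a6. It also needed at least 4 UMIs summed over Nxph1, Pax8, Sall3, B130024G19Rik, Pdzd2 and Nox4, fewer than 2 UMIs of Npy and fewer than 2 of Pdyn and Gal together. Of 112746 deposited barcodes, 112194 had at least 300 genes and under 5% mitochondrial UMIs, 25289 of these passed the inhibitory gate, and 5624 were members. These counts chose the nuclei, so the levels of the 14 genes of the rule, and any level of the set against other nuclei, are descriptions.

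Inhibitory neurons of the dorsal horn release GABA, glycine or both and restrain the passage of touch, itch and pain signals to the brain. Gad1 and Gad2 encode the enzymes that make GABA, Slc32a1 encodes the transporter that loads GABA and glycine into synaptic vesicles, and Slc6a5 encodes the glycine transporter of glycinergic terminals. Nxph1 encodes neurexophilin 1, a secreted ligand of alpha-neurexins at synapses, and Pax8 is a transcription factor of the same family as Pax2, the factor that marks developing inhibitory neurons of this region. Sall3 is a zinc finger transcription factor, B130024G19Rik an annotated noncoding transcript, Pdzd2 a PDZ domain protein, and Nox4 an NADPH oxidase that makes hydrogen peroxide.

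The study compared mice lacking Gpr37l1, a G protein-coupled receptor gene of astrocytes, with wild-type mice, either uninjured (naive) or 1 day after spared nerve injury (SNI), a sciatic nerve injury used as a model of neuropathic pain. There were 4 groups with 1 library each: Gpr37l1-/- after SNI (KO SNI), Gpr37l1+/+ after SNI (WT SNI), Gpr37l1-/- without injury (KO naive) and Gpr37l1+/+ without injury (WT naive). Each library held nuclei of fresh dorsal horn counted with 10x Genomics 3' chemistry. The molecule label is total RNA for KO SNI and polyA RNA for the other libraries, and the part of this in the KO SNI comparisons cannot be told apart. The sources used here give neither the sex, age and strain of the mice nor how many were pooled, and they do not say which side of the cord was taken after injury. The treatment tag goes against the sample title in 2 libraries: KO naive is tagged as injured and WT SNI as naive. The titles were used for grouping, because the names of the deposited libraries have the same condition. With 1 library per group no test was possible, and every 95% interval, given in parentheses, covers counting error only and not the spread between animals.

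The libraries held 44079044 UMIs in KO SNI, 50605908 in WT SNI, 69572640 in KO naive and 35197290 in WT naive. Gpr37l1 itself had 11 UMIs over the kept nuclei of KO SNI and 1293 over those of WT SNI, and 23 UMIs in KO naive against 495 in WT naive. In the set it had 0 UMIs in KO SNI against 65 in WT SNI, and 0 in KO naive against 20 in WT naive, so the genotypes of the titles hold in these nuclei too. Between 162 and 293 barcodes were shared by any pair of libraries, and among members at most 2 were.

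The set held 1219 nuclei in KO SNI, 1197 in WT SNI, 2244 in KO naive and 964 in WT naive. Its share of inhibitory nuclei was 22.8% (21.7 to 24.0) in KO SNI and 18.9% (17.9 to 19.9) in WT SNI, and it was 23.6% (22.8 to 24.5) in KO naive and 23.5% (22.2 to 24.8) in WT naive. The WT SNI share was thus the low one. Members had a median of 2205 UMIs in KO SNI, 2790 in WT SNI, 2822 in KO naive and 2516 in WT naive, and the other inhibitory nuclei had medians of 1506, 1619, 1538 and 1733 UMIs in the same libraries. A rule that asks for a fixed number of UMIs takes deeper nuclei more readily, and when every nucleus was thinned to 1500 UMIs before the rule was applied, the shares were 19.3% in KO SNI, 12.8% in WT SNI, 17.8% in KO naive and 17.1% in WT naive. The WT SNI share was the lowest of the 4 at equal depth too, but with members of 2 or more glial UMIs left out KO naive was lowest, at 6.98% against 11.3% in WT naive, beside 10.99% in KO SNI and 7.31% in WT SNI. Predicted doublets made up 6.48% of members in KO SNI, 10.3% in WT SNI, 5.12% in KO naive and 11.1% in WT naive, against 6.5001%, 11.1%, 5.67% and 12.3% of the other inhibitory nuclei there. The caller set its own threshold in KO SNI and KO naive, while the 90th percentile of scores was used in WT SNI and WT naive, so these shares do not compare libraries.

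Nxph1 carried most of the rule. It supplied between 74.8% and 75.9% of the marker UMIs in each library, 4024 members (71.6%) had 4 or more UMIs of Nxph1 alone, and 1460 (26.0%) had UMIs of no other marker. Nxph1 stood at 2051 CPM (UMIs of the gene scaled to a common library total over the summed nuclei, mitochondrial genes left out) in KO SNI, 1566 in WT SNI, 1723 in KO naive and 1846 in WT naive. The other inhibitory nuclei had 342, 304, 373 and 276 CPM of it in the same libraries. Pax8, which the name also carries, stood at 64.2 CPM in KO SNI, 61.0 in WT SNI, 57.4 in KO naive and 76.0 in WT naive, against 24.3, 19.7, 18.5 and 31.7 CPM in other inhibitory nuclei. UMIs of both Nxph1 and Pax8 were found in 875 of the 5624 members (15.6%). Members with UMIs of 1, 2 and 3 of the 6 markers numbered 1484, 2404 and 1375, those with 4 or 5 numbered 326 and 34, and 1 nucleus had all 6. Most members thus had no Pax8 UMI at this depth, so the set is named for the sum over its 6 genes and not for the presence of Pax8 in each nucleus.

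The remaining 4 markers were likewise present in every library. Pdzd2 stood at 397 CPM in KO SNI, 300.2 in WT SNI, 357 in KO naive and 329 in WT naive. Sall3 had 73.5, 59.0, 52.5 and 71.5 CPM in KO SNI, WT SNI, KO naive and WT naive, B130024G19Rik had 65.1, 47.0, 56.0 and 51.5 CPM, and Nox4 had 62.6, 53.3, 57.4 and 57.8 CPM. The gate genes were not above other inhibitory nuclei: Gad1 had 131 CPM in KO SNI, 120 in WT SNI, 93.8 in KO naive and 127 in WT naive, against 151, 137, 126 and 148 CPM. Slc32a1 was lower in the set, with 98.2 CPM in KO SNI, 69.1 in WT SNI, 76.1 in KO naive and 72.5 in WT naive, against 149, 132, 158 and 120 CPM. In 3476 members (61.8%) the gate was passed by exactly 1 UMI. The genes lie, on GRCm38, at 6:8948431-9249032 on the plus strand for Nxph1 and 2:24420560-24475599 on the minus strand for Pax8.

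**Figure D1:**
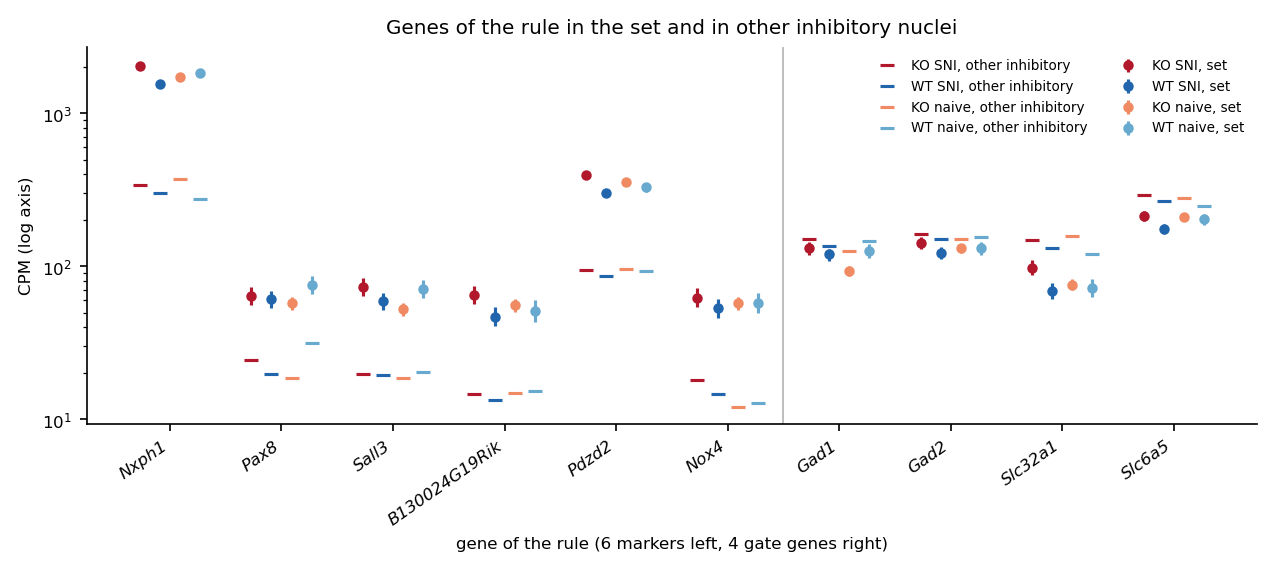
Level of the 6 marker genes and 4 gate genes of the rule in CPM on a log axis, for members (points, bars are 95% counting intervals) and other inhibitory nuclei (dashes), in the libraries KO SNI, WT SNI, KO naive and WT naive. Nxph1 is at 1566 to 2051 CPM in members and at 276 to 373 CPM in other inhibitory nuclei, and the gate genes do not rise above other inhibitory nuclei.

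At the threshold, 1367 members had exactly 4 marker UMIs and 1891 inhibitory nuclei just outside had exactly 3. The 4-UMI members had 145.5 CPM of Gad1 in KO SNI, 129 in WT SNI, 86.7 in KO naive and 114 in WT naive, and the 3-UMI nuclei had 133, 119, 114 and 139 CPM. Pax2, which the rule did not use, was at 127 CPM in the 4-UMI members of KO SNI, 165 of WT SNI, 125 of KO naive and 153 of WT naive, against 158, 116, 119 and 149 CPM in the 3-UMI nuclei. Pax2 was lower in the 4-UMI members in KO SNI and higher in the other 3 libraries, and Gad1, a gate gene, was lower in the 4-UMI members in KO naive and WT naive and higher in KO SNI and WT SNI.

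Genes outside the rule were used to check that members are inhibitory neurons. Nuclei were thinned to 1000 UMIs for this and those with fewer were left out, 53 members in KO SNI, 8 in WT SNI, 13 in KO naive and 14 in WT naive. Rbfox3, which encodes the neuronal nuclear protein NeuN, then had a UMI in 33.4% of members in KO SNI, 30.03% in WT SNI, 28.8% in KO naive and 29.5% in WT naive. Oligodendrocyte-gated nuclei (at least 3 UMIs over Mog, Mag and Mobp and none of the gate genes or Slc17a6), whose class should lack it, had 11.9%, 12.6%, 13.6% and 9.58%. These are the background shares of the 4 libraries, and the members lie above them. Thinning left out 899 of 2075, 694 of 2160, 629 of 2488 and 892 of 1925 oligodendrocyte-gated nuclei, so the background is that of the deeper ones. Pax2 had a UMI in 14.2% of members in KO SNI, 14.6% in WT SNI, 13.6% in KO naive and 12.9% in WT naive, against 1.70%, 1.64%, 3.82% and 1.74% of oligodendrocyte-gated nuclei. Unthinned, Pax2 had a UMI in 29.5%, 34.3%, 31.7% and 30.9% of members in the KO SNI, WT SNI, KO naive and WT naive libraries.

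The same comparison puts a floor under the marker genes. Nxph1 had a UMI, after thinning, in 86.4% of members in KO SNI, 80.3% in WT SNI, 80.1% in KO naive and 82.7% in WT naive, and in 19.6%, 17.4%, 29.1% and 11.8% of oligodendrocyte-gated nuclei. The oligodendrocyte-gated share was highest in KO naive, which was also the library with the largest share of Nxph1-positive other inhibitory nuclei, 30.6%, against 28.5% in KO SNI, 25.4% in WT SNI and 22.7% in WT naive. Pax8 had a UMI in 6.86% of members in KO SNI, 5.89% in WT SNI, 5.96% in KO naive and 7.89% in WT naive, against 1.53%, 0.614%, 0.861% and 0.678% of oligodendrocyte-gated nuclei. Over all kept nuclei 14106 had 4 or more marker UMIs, 7447 of these had no gate UMI and 2137 had a Slc17a6 UMI. The marker sum thus reached 4 in many nuclei outside the gate. Inhibitory nuclei whose gate genes were not counted at this depth could be among them.

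The summed level of 10 oligodendrocyte markers in members was 1209 CPM in KO SNI, 1493 in WT SNI, 1512 in KO naive and 1019 in WT naive, and none of the 10 was at 0. That sum in other inhibitory nuclei was 2395, 2667, 3067 and 2468 CPM. In those of them with at least 2 Npy UMIs and fewer than 2 of Pdyn and Gal it was 1124, 2163, 2281 and 975 CPM.

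Clustering the members by genes outside the rule and outside every marker list gave 20 subclusters of 69 to 905 nuclei, so the set is not homogeneous. The markers that built the set differed strongly between them. Pax8 ran from 2.54 CPM in subcluster 16 to 181 in subcluster 12, Sall3 from 0 in subcluster 19 to 199 in subcluster 10, and B130024G19Rik from 0 in subcluster 18 to 208 in subcluster 3. Nxph1 had a narrower relative span, from 1307 CPM in subcluster 6 to 3643 in subcluster 4.

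The largest subcluster, number 1 with 905 nuclei, had low Pax8 (24.6 CPM), Sall3 (24.1 CPM) and Gad1 (41.8 CPM) beside 273 CPM of Slc6a5, the glycine transporter, and 543 CPM of Zfhx3, a homeodomain and zinc finger transcription factor. Its leading genes included Col4a5, a basement membrane collagen gene, and Kcns3, a potassium channel subunit gene. Subcluster 3 (559 nuclei) was led by Hpse2 and Sorcs3 and held 208 CPM of B130024G19Rik, 762.1 of Pdzd2 and 718 of Rorb, a nuclear receptor gene of a known dorsal horn interneuron group. Subcluster 4 (520 nuclei) had the highest Nxph1, with 3643 CPM, and was led by Eya2 and Esr1, the oestrogen receptor gene, at 287 CPM against 40.9 CPM in the other members. Subcluster 5 (319 nuclei) was led by Igfbp7, Eya4 and Adamts5 and combined 3341 CPM of Nxph1 with 908 of Pdzd2.

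Smaller subclusters carried sharper genes. Subcluster 8 (278 nuclei) was led by Tyr, at 83.9 CPM against 2.50 CPM in other members, and had 1342 CPM of Rorb. Subcluster 10 (253 nuclei) was led by Rxfp2, a relaxin family receptor, at 366 CPM against 8.72 CPM, and had 199 CPM of Sall3, 860 of Rorb and 266 of Esr1. Subcluster 13 (162 nuclei) had Maf, a transcription factor gene, among its leading genes and had 139 CPM of Pax8. Subcluster 14 (154 nuclei) was led by Fbxl7 and Hmga2 and had 168 CPM of Pax8 and 346 of Pax2, the highest Pax2 of the 20. Subcluster 18 (107 nuclei) combined 165 CPM of Pax8 and 1180 of Zfhx3 with 3.12 CPM of Sall3. Subcluster 19 (94 nuclei) was led by Pde5a, Nos1 and Piezo2, with 358 CPM of Nos1, the neuronal nitric oxide synthase gene, against 9.38 CPM in other members, and 53.1 CPM of Chat, the acetylcholine-synthesising enzyme gene. Each of these was found in all 4 libraries.

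Subcluster 16 (116 nuclei) stood apart from the rest of the set in the transcription factor genes. It had 2.54 CPM of Pax8, 17.8 of Pax2 and 7.63 of Sall3, beside 78.8 CPM of Lmx1b, a factor of excitatory dorsal horn neurons, and 1777 CPM of Nxph1. Its leading genes included Megf11, Meis2 and Tafa1. It kept gate genes at 83.9 CPM of Gad1 and 109 of Slc6a5, and 1 of the 9 excitatory markers was raised in it.

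**Figure D2:**
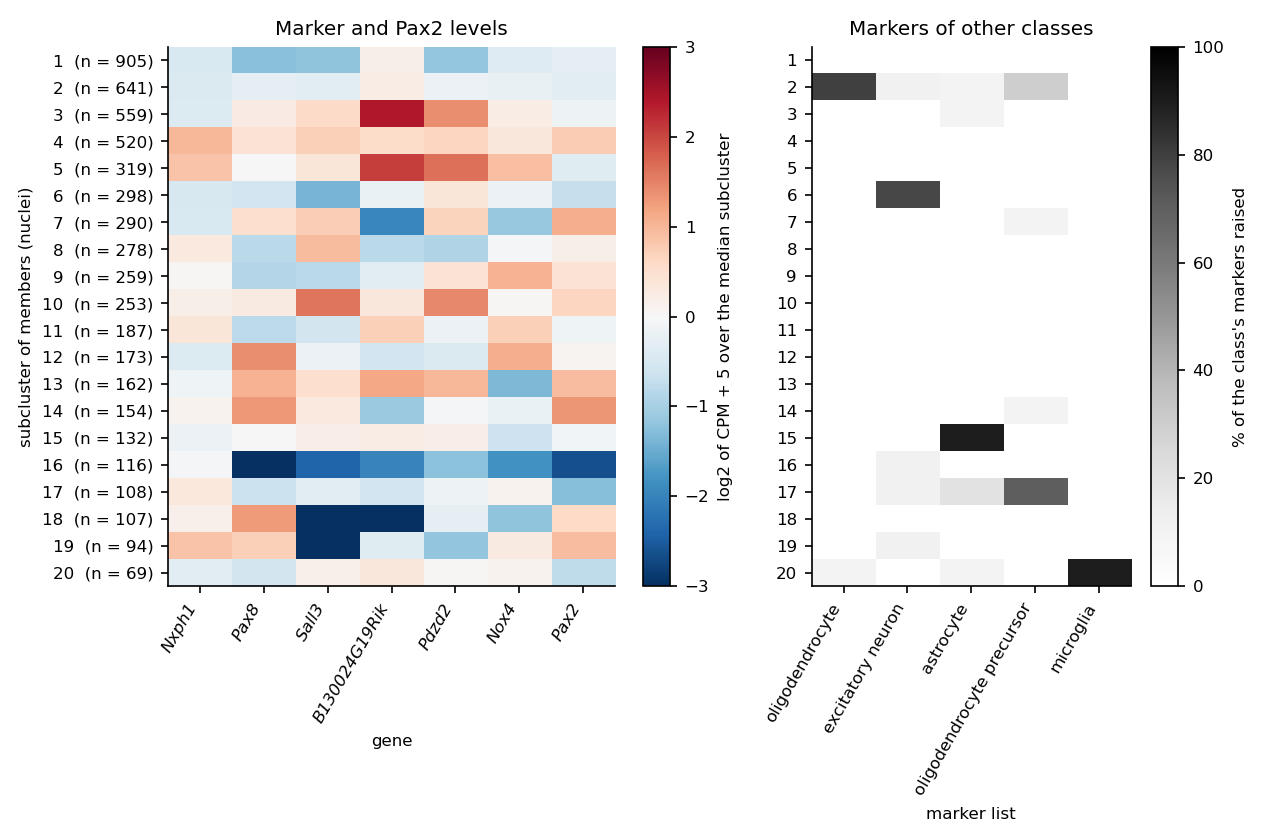
Left, level of the 6 markers and Pax2 in each of the 20 subclusters of members, as log2 of CPM + 5 over the median subcluster. Right, percentage of the markers of 5 other cell classes that were raised 2-fold in each subcluster. Pax8, Sall3 and B130024G19Rik differ more between subclusters than Nxph1 does, and subclusters 2, 6, 15, 17 and 20 show raised markers of another class.

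In 5 subclusters, 1248 members in all (22.2%), at least 7 markers of another cell class were raised 2-fold or more over the other members. The other subclusters had at most 2 raised markers of any class outside the set, and the limit was set after seeing these counts. Subcluster 2 (641 nuclei) had 8 of 10 oligodendrocyte markers raised, with 675 CPM of Mbp, and also 5 of 8 endothelial markers. Subcluster 6 (298 nuclei) had 7 of 9 excitatory markers raised, with 617 CPM of Ebf2. Subcluster 15 (132 nuclei) had 9 of 10 astrocyte markers raised, with 902 CPM of Slc1a2, the glial glutamate transporter gene. Subcluster 17 (108 nuclei) had 7 of 10 markers of oligodendrocyte precursors raised, with 263 CPM of Pdgfra and 468 of Vcan. Subcluster 20 (69 nuclei) had 9 of 10 microglial markers raised, with 332 CPM of Inpp5d and 129 of Cx3cr1. These members were kept, as the rule keeps them, and values without them are given where they matter.

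The 5 subclusters made up 21.2% of members in KO SNI, 26.6% in WT SNI, 23.3% in KO naive and 15.6% in WT naive. The oligodendrocyte-marked subcluster was largest in WT SNI, at 16.96% of members (14.9 to 19.2) against 7.78% (6.17 to 9.65) in WT naive, and held 8.37% (6.87 to 10.1) in KO SNI against 11.6% (10.3 to 13.0) in KO naive. The microglia-marked subcluster held 3.28% (2.35 to 4.44) of members in KO SNI, which is 40 of its 69 nuclei, against 0.585% (0.235 to 1.20) in WT SNI. It held 0.579% (0.309 to 0.989) in KO naive and 0.934% (0.428 to 1.77) in WT naive. Leaving out the 5 subclusters, a choice made after seeing the data, brought the set to 17.99% of inhibitory nuclei in KO SNI, 13.9% in WT SNI, 18.1% in KO naive and 19.8% in WT naive.

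**Figure D3:**
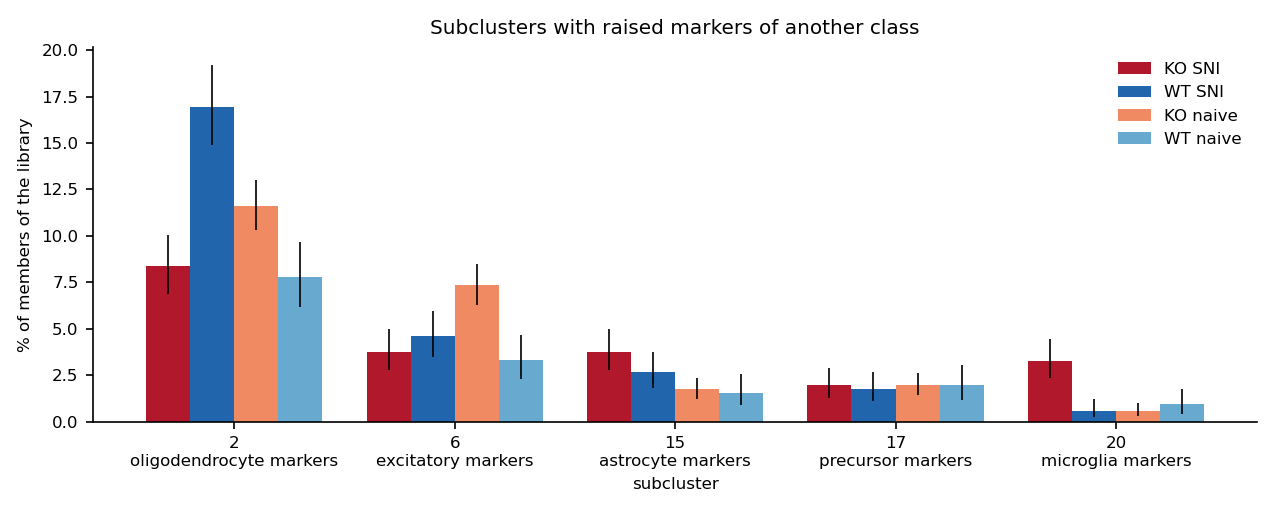
Share of the members of each library, in percent with 95% Clopper-Pearson intervals, in the 5 subclusters with raised markers of another class, for KO SNI, WT SNI, KO naive and WT naive. The oligodendrocyte-marked subcluster 2 is largest in WT SNI (16.96%) and the microglia-marked subcluster 20 in KO SNI (3.28%).

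Against the other inhibitory nuclei, 9 of 13024 genes with at least 200 UMIs were 2-fold or more higher in the set in all 4 libraries, which is 0.0691%, and 25, or 0.192%, were 2-fold or more lower. The genes of the rule were left out of these counts. Chrm3, the muscarinic M3 receptor gene, was the high gene with the most counts: members had 751 CPM in KO SNI, 665 in WT SNI, 585 in KO naive and 710.0 in WT naive, against 296, 275, 267 and 282 CPM in other inhibitory nuclei. Its log2 ratios were 1.34, 1.27, 1.13 and 1.33 in the KO SNI, WT SNI, KO naive and WT naive libraries. Nwd2 had log2 ratios of 1.15, 1.03, 1.12 and 1.30 in the same libraries, and Gbx1, a homeobox gene of dorsal inhibitory interneurons, 1.17, 1.89, 1.26 and 1.28. Rxfp2 (1.37, 1.91, 1.497 and 1.56) and Cdh3, a cadherin gene (0.82, 1.21, 0.98 and 0.95), were also high, and each led a subcluster of members. Nxph2, a relative of Nxph1, stood at 32.4 CPM in KO SNI, 18.5 in WT SNI, 20.9 in KO naive and 27.3 in WT naive, against 11.5, 8.34, 10.6 and 10.6 CPM.

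Genes lower in the set than in other inhibitory nuclei included Bnc2, with log2 ratios of -1.27 in KO SNI, -1.38 in WT SNI, -1.46 in KO naive and -1.44 in WT naive, and Tcf7l2, with -1.20, -1.21, -1.22 and -1.89. Tcf7l2 encodes a Wnt effector that oligodendrocytes also use. Prrxl1, a homeobox gene of excitatory dorsal horn neurons, had -1.20, -1.22, -1.21 and -1.16. Acsbg1, an acyl-CoA synthetase gene of astrocytes, had -1.12, -1.18, -1.4999 and -1.94. All 8 excitatory, 9 astrocyte, 10 oligodendrocyte and 10 microglial markers with enough counts were lower in the set in all 4 libraries, where 31.2% of the 13024 genes were. Of 9 oligodendrocyte precursor markers 6 were lower and 1 higher in all 4 libraries, and of 5 endothelial markers 0 were lower and 0 higher. The set thus had less of the excitatory, astrocyte, oligodendrocyte and microglial markers than the other inhibitory nuclei. This was so even though subclusters 2, 6, 15 and 20 are raised in them.

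Transcription factor genes of inhibitory neurons were divided. Of 21 with enough counts, 8 were higher and 8 lower in the set in all 4 libraries, beside 11.6% higher and 31.2% lower among all genes. Pax2 was higher, with 159 CPM in KO SNI, 149.6 in WT SNI, 140.1 in KO naive and 149 in WT naive, against 114, 86.1, 90.4 and 118 CPM. Rora, a nuclear receptor gene, had 1804, 1666, 1718 and 1563 CPM in the members of KO SNI, WT SNI, KO naive and WT naive, against 1414, 1391, 1458 and 1329 CPM. Lower in the set were Tcf4, with log2 ratios of -0.36, -0.42, -0.47 and -0.52, and Nfia, with -0.24, -0.40, -0.39 and -0.40, in that order of libraries. The excitatory factor gene Ebf2 had -1.22, -0.54, -0.70 and -1.15.

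Of 23 genes that mark subtypes of inhibitory neurons, 6 were higher and 11 lower in the set in all 4 libraries. Their summed level was 2277 CPM in KO SNI, 2281 in WT SNI, 2284 in KO naive and 2147 in WT naive, against 2073, 2182.3, 2326 and 1899 CPM in other inhibitory nuclei. Among the lower ones, Sst, which encodes somatostatin, had 90.5 CPM in members of KO SNI, 118 of WT SNI, 82.6 of KO naive and 99.8 of WT naive, against 145, 216, 154 and 168 CPM. Penk, the proenkephalin gene, had 55.2, 61.0, 54.2 and 53.2 CPM, against 66.4, 90.6, 79.2 and 76.3 CPM, and Pvalb, the parvalbumin gene, 23.4, 39.5, 24.2 and 22.8 CPM, against 34.2, 63.1, 42.0 and 33.5 CPM in the same libraries.

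Of all tested genes, 11.6% were higher and 31.2% lower in the set in all 4 libraries, and of 10 general neuronal markers 7 were higher and 2 lower. Members were also the deeper nuclei, and the part of depth in the counts below was not tested. Of 22 ionotropic glutamate receptor genes, 12 were higher in all 4 libraries and 4 lower, and of 6 metabotropic ones 4 were higher and 0 lower. Grik2, a kainate receptor subunit gene, stood at 1991 CPM in KO SNI, 1729 in WT SNI, 2051 in KO naive and 1926 in WT naive, against 1217, 1040.4, 1251 and 1175 CPM, and its log2 ratio was 0.71 to 0.73 in every library. Grm5, the metabotropic glutamate receptor 5 gene, stood at 2136, 2097, 2248 and 2190.3 CPM in KO SNI, WT SNI, KO naive and WT naive, against 1603, 1388, 1733 and 1545 CPM. Calcium channel genes were higher in 11 of 17 cases and lower in 2, with Cacna2d3, an auxiliary subunit gene, at log2 ratios of 0.70, 0.79, 0.76 and 0.68. Sodium channel genes were higher in 8 of 13 and lower in 2, and potassium channel genes in 16 and 7 of 41, with Kcnd2, an A-type channel gene, at 0.45, 0.42, 0.30 and 0.36. Of 38 synaptic adhesion genes 13 were higher and 11 lower, and of 22 cadherin genes 6 were higher and 7 lower. Abundant cytoplasmic transcripts went the other way, with 25 of 25 lower, as did heat shock and chaperone genes, with 19 of 25 lower and 0 higher. Of the other inhibitory nuclei, 358 had at least 2 Npy UMIs and fewer than 2 of Pdyn and Gal. Another 161 had at least 2 of Pdyn and Gal. Summed metabotropic levels in KO SNI, WT SNI, KO naive and WT naive were 5374, 5207, 5821 and 5140 CPM in the set. The Npy nuclei had 5080, 4275, 5666 and 5735 CPM, and the Pdyn or Gal nuclei 5278, 3986, 6544 and 6880 CPM. High metabotropic levels were thus not particular to the set. Potassium channel sums in that order were 19961, 18229.5, 21622 and 18784 CPM in the set. The Npy nuclei had 22455, 16612, 21026 and 20358.5 CPM, and the Pdyn or Gal nuclei 23503, 15140, 25056 and 24371 CPM. Sodium channel sums were higher in the set, except against Npy nuclei in KO SNI (7653 against 7975 CPM). So were ionotropic ones, except against Npy nuclei in WT naive (11940 against 12122 CPM). Calcium channel sums were higher in the set throughout.

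Of 13 GABA-A receptor genes, 4 were higher and 7 lower in all 4 libraries, beside the same 11.6% and 31.2% of all genes. Glra1, the adult glycine receptor subunit gene, had log2 ratios of 0.23 in KO SNI, 0.29 in WT SNI, 0.29 in KO naive and 0.33 in WT naive. Glrb, the anchoring subunit gene, had 0.07, -0.06, -0.13 and -0.10. Chrm2, the muscarinic M2 receptor gene, had 0.80, 0.62, 0.53 and 0.72, and Htr2c, a serotonin receptor gene, 0.36, 0.20, 0.36 and 0.36.

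The genotype comparison asked what loss of Gpr37l1 changes, after injury and without it. After injury, 20 of 8661 genes with at least 100 UMIs over the pair (0.231%) differed 2-fold or more between KO SNI and WT SNI, 17 higher (0.196%) and 3 lower (0.0346%) in KO SNI. This balance depended on the rule: with at least 6 marker UMIs 8 were higher and 8 lower, and with at least 2 gate UMIs 3 were higher and 5 lower. Without injury, 298 of 9574 genes (3.11%) differed 2-fold or more between KO naive and WT naive, 49 higher (0.512%) and 249 lower (2.6%) in KO naive. No gene was 2-fold higher in both comparisons (0 of 8615) and none 2-fold lower in both (0 of 8615). The 2 comparisons share no library.

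The genes that were higher in the knockout in both comparisons, ranked by the smaller ratio, were led by Pmp22, a myelin protein gene, Aqp4, the astrocyte water channel gene, and Pla2g4a, a phospholipase gene. Pmp22 had 27.6 CPM in KO SNI against 14.5 in WT SNI, and 16.6 CPM in KO naive against 9.11 in WT naive. Its log2 ratios were 0.93 (0.43 to 1.43) after SNI and 0.86 (0.24 to 1.54) without injury. Aqp4 had 24.1 CPM in KO SNI against 13.3 in WT SNI, and 18.4 CPM in KO naive against 7.36 in WT naive. The summed level of the 10 astrocyte markers, which include Aqp4, was 255 CPM in KO SNI against 217 in WT SNI, and 201 CPM in KO naive against 134.5 in WT naive, and its part in the Aqp4 ratio was not tested. Lgmn, the legumain protease gene, had the narrowest intervals of the 10, with log2 ratios of 0.53 (0.30 to 0.76) after SNI and 0.56 (0.31 to 0.81) without injury. The others were Nek7, Shroom4, Grn, Gm10862, Prkg2 and Pdzrn3.

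Among genes lower in the knockout in both comparisons, Ptgds, the prostaglandin D2 synthase gene, had the most counts. It stood at 237 CPM in KO SNI against 379.5 in WT SNI, and at 148 CPM in KO naive against 299.8 in WT naive, with log2 ratios of -0.68 (-0.81 to -0.55) and -1.02 (-1.15 to -0.89). In other inhibitory nuclei Ptgds was at 355 CPM in KO SNI against 648 in WT SNI and at 255 CPM in KO naive against 460.5 in WT naive, higher than in the set in every library. Htr2b, a serotonin receptor gene, had 14.8 CPM in KO SNI against 24.8 in WT SNI and 13.2 CPM in KO naive against 39.9 in WT naive, with log2 ratios of -0.75 (-1.28 to -0.23) and -1.59 (-2.00 to -1.19). The others were Klhl26, Fam131a, Ercc3, Tk2 and the noncoding transcripts Gm47350, C030047K22Rik, Gm42917 and 1110046J04Rik. Htr2b, Fam131a and Gm47350 each overlap a gene on the opposite strand in the annotation.

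**Figure D4:**
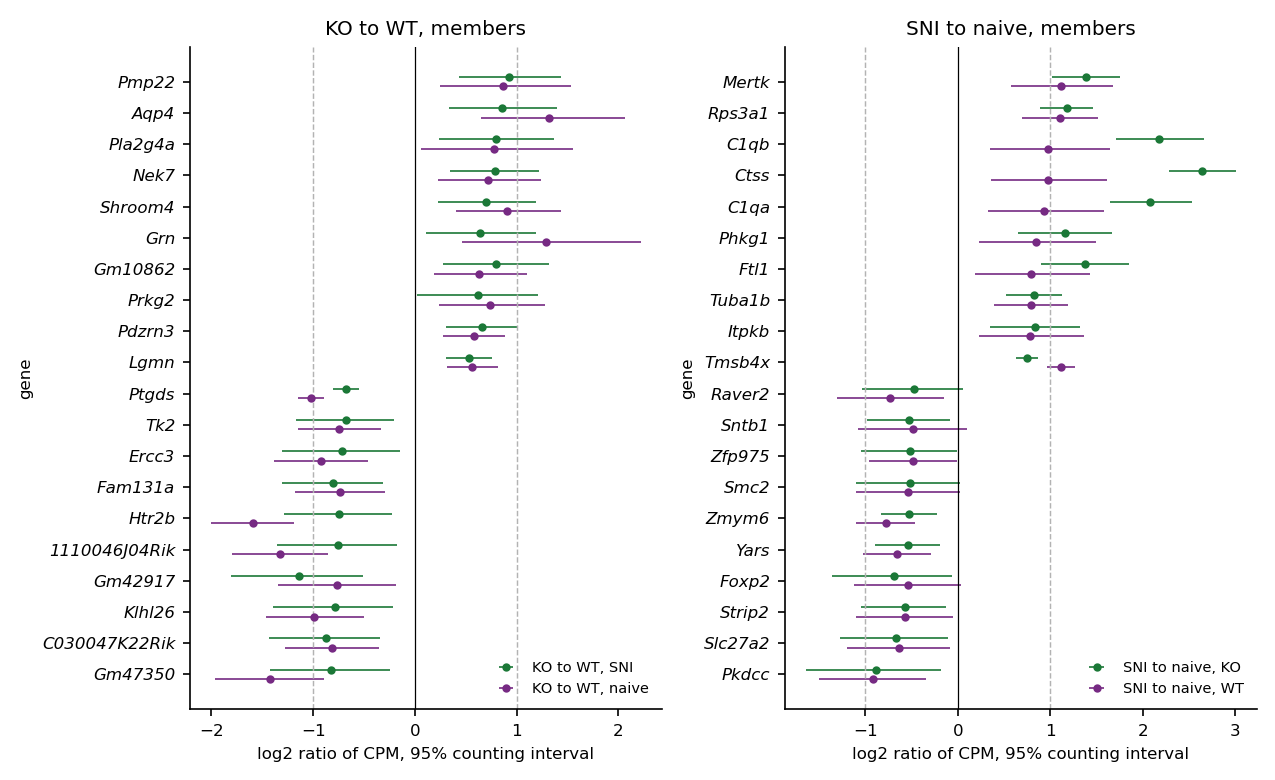
Log2 ratios of CPM in members, with 95% counting intervals, for the 10 genes highest and 10 lowest in both KO to WT comparisons (left) and in both SNI to naive comparisons (right). Dashed lines mark 2-fold. Each of the genotype genes lies inside 2-fold in at least 1 comparison, and Mertk and Rps3a1 lie beyond 2-fold after injury in both genotypes.

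The 17 genes 2-fold higher in KO SNI than in WT SNI included 1 gene of the microglial marker list, Inpp5d, and 1 of the endothelial list, Flt1. Ctss, a lysosomal protease gene of microglia, had 78.0 CPM in KO SNI against 21.3 in WT SNI, and Ly86 49.7 CPM in KO SNI against 18.01 in WT SNI. Inpp5d, a microglial signalling gene, had 33.0 CPM in KO SNI against 9.01 in WT SNI, and its log2 ratio of 1.88 (1.32 to 2.47) was 0.36 without the 5 subclusters marked by other classes. The summed level of the 10 microglial markers in members was 406.5 CPM in KO SNI, 233 in WT SNI, 150.3 in KO naive and 199.7 in WT naive, none of them at 0. Calca, the gene of calcitonin gene-related peptide, had 34.0 CPM in KO SNI against 8.26 in WT SNI. Its log2 ratio of 2.04 (1.47 to 2.65) was 2.16 without those subclusters, 1.31 in other inhibitory nuclei and 1.93 in oligodendrocyte-gated nuclei. Of the 17 genes, 12 stayed 2-fold higher without the 5 subclusters, and of the 15 that could be measured in oligodendrocyte-gated nuclei 10 were 2-fold higher there as well. In other inhibitory nuclei all 17 were higher in KO SNI, 4 of them 2-fold.

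The genes lower in KO naive than in WT naive differed in kind from the tested genes. Of the 249, 117 (47.0%) are annotated as antisense transcripts, against 3.29% of the 9574 tested genes, and 208 (83.5%) overlap a gene on the opposite strand, against 40.2%. Of the 249, 92 are protein coding. Among these, Scn9a, the sodium channel Nav1.7 gene, stood at 91.9 CPM in KO naive against 207 in WT naive, with a log2 ratio of -1.17 (-1.33 to -1.01), and at 146 CPM in KO SNI against 176 in WT SNI. Scn9a had log2 ratios of -1.10 in other inhibitory nuclei, -1.16 in excitatory-gated nuclei (at least 2 Slc17a6 UMIs and no gate UMI) and 0.02 in oligodendrocyte-gated nuclei in the naive comparison. Scn9a and Oprm1 overlap opposite-strand genes, and whether the counting used the strand is not given in the sources used here, so reads of the partners cannot be told apart. Short of 2-fold, and so outside the 249, Slc38a2, a glutamine transporter gene, had 175 CPM in KO naive against 318 in WT naive and overlaps no such gene. Also outside the 249, Oprm1, the mu opioid receptor gene, had 69.8 CPM in KO naive against 129.9 in WT naive, with a log2 ratio of -0.90 (-1.09 to -0.70), while KO SNI had 107 CPM against 101 in WT SNI.

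The difference was not particular to the set. All 249 genes were also lower in KO naive in other inhibitory nuclei, 196 of them 2-fold, and 226 stayed 2-fold lower in the set without the 5 subclusters. In oligodendrocyte-gated nuclei 138 had enough counts and 134 of those were lower, 79 of them 2-fold. Summed over 2955 annotated antisense genes, members had 16777 CPM in KO SNI, 17154 in WT SNI, 11398 in KO naive and 18639 in WT naive. The sums were 17201, 16917, 11045 and 19218 CPM in other inhibitory nuclei and 16187, 15867, 10817 and 17901 CPM in oligodendrocyte-gated nuclei of the same libraries. The KO naive library was low in each class of nuclei, and its genotype and the library itself cannot be told apart with 1 library. Transcripts annotated as lincRNA were low there as well, with 67806 CPM in members of KO naive against 109694 in WT naive, 82489 in KO SNI and 104650 in WT SNI.

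**Figure D5:**
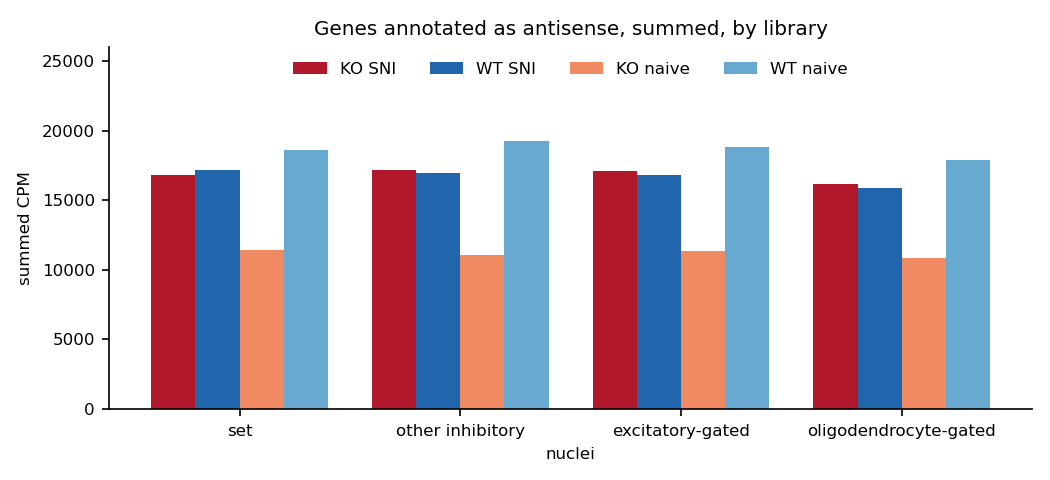
Summed CPM of the 2955 genes annotated as antisense transcripts in members, other inhibitory, excitatory-gated and oligodendrocyte-gated nuclei, for KO SNI, WT SNI, KO naive and WT naive; no error is drawn, since there is 1 library per group. KO naive is the lowest library in each class of nuclei, at 11398 CPM in members.

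Channel, receptor, cadherin and synaptic adhesion groups had median log2 ratios of 0.00 to 0.27 between genotypes, and the inhibitory subtype genes had -0.03 over 21 genes after SNI and -0.22 over 23 without injury. The median over all tested genes was -0.01 after SNI, where 49% were higher in KO SNI, and 0.01 without injury, where 51.5% were higher in KO naive. Of 34 synaptic adhesion genes tested after SNI, 20 were higher in KO SNI, with a median of 0.08, and 0 were 2-fold apart. Without injury 27 of 36 were higher in KO naive, with a median of 0.13, and 1 was 2-fold lower. Metabotropic glutamate receptor genes had medians of 0.04 after SNI, with 5 of 6 higher, and 0.27 without injury, with 6 of 6 higher. Of 22 cadherin genes 18 were higher in KO SNI than in WT SNI, with a median of 0.07, and 18 in KO naive than in WT naive, with a median of 0.20. Potassium channel genes had medians of 0.10 over 37 genes after SNI and 0.20 over 38 without injury, with 0 genes 2-fold apart in either. GABA-A receptor genes had medians of 0.08 over 13 genes and 0.18 over 13. Kcnd2 had 3096 CPM in KO SNI against 2736 in WT SNI and 3165 CPM in KO naive against 2766 in WT naive, with log2 ratios of 0.18 (0.14 to 0.22) and 0.19 (0.16 to 0.23).

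Oligodendrocyte, excitatory and microglial marker lists had medians farther from 0 than these groups. The 10 oligodendrocyte markers had a median log2 ratio of -0.35 in KO SNI to WT SNI, with 0 higher and 10 lower, and of 0.71 in KO naive to WT naive, with 8 higher and 2 lower. Excitatory markers had medians of -0.53 over 4 genes and 0.80 over 5, with Ebf2 at 101 CPM in KO SNI against 148 in WT SNI and at 192 CPM in KO naive against 105 in WT naive. The shares of subclusters 2 and 6, which carry these markers, were lower in KO SNI than in WT SNI and higher in KO naive than in WT naive as well. Without the 5 subclusters the oligodendrocyte medians were -0.05 and 0.84 over the same 10 genes, and the excitatory medians were -0.11 over 3 genes and 0.79 over 5. The microglial markers had a median of 0.84 after SNI, with 7 of 7 higher in KO SNI, which was 0.74 over the 4 genes still tested without the 5 subclusters, and -0.42 over 3 genes without injury. The astrocyte markers had 0.19 over 4 genes after SNI and 0.83 over 5 without injury, with 5 of 5 higher in KO naive.

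The 6 markers and 4 gate genes of the rule differed by less than 2-fold in each comparison. Of the exclusion genes, Gal was past 2-fold higher in WT SNI than in WT naive, with a UMI in 7.02% of members against 2.49%. After SNI all 6 markers were higher in KO SNI than in WT SNI, with a median log2 ratio of 0.35, and without injury 2 were higher and 4 lower in KO naive than in WT naive. Nxph1 had log2 ratios of 0.39 (0.34 to 0.44) after SNI and -0.10 (-0.15 to -0.05) without injury. Pax8 had 0.07 (-0.20 to 0.35) after SNI and -0.41 (-0.65 to -0.16) without injury. Since these genes chose the nuclei, no more is read from them.

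The injury comparison asked what 1 day of SNI changes in each genotype. In the knockout, 188 of 9674 genes (1.94%) differed 2-fold or more between KO SNI and KO naive, 166 higher (1.72%) and 22 lower (0.227%) in KO SNI. With TMM scaling factors these were 115 higher and 32 lower. In wild type, 29 of 8501 genes (0.341%) differed 2-fold or more between WT SNI and WT naive, 27 higher (0.318%) and 2 lower (0.0235%) in WT SNI. The KO naive library, low in antisense transcripts, is the uninjured side of the knockout comparison, and 66 of its 166 higher genes (39.8%) are annotated as antisense, where 3.23% of the tested genes are. In wild type this was 1 of the 27, where 3.48% of the tested genes are. Of those 27, 11 stayed 2-fold higher without the 5 subclusters marked by other classes, and subcluster 2, marked by oligodendrocyte genes, held 16.96% of members in WT SNI against 7.78% in WT naive. In other inhibitory nuclei 112 of the 166 genes were 2-fold higher as well. Of the 27 wild-type genes, 25 were higher in WT SNI in other inhibitory nuclei, 5 of them 2-fold.

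Across genotypes, 2 of 8457 genes (0.0236%) were 2-fold higher after SNI in both, and 1 (0.0118%), the noncoding transcript C030034I22Rik, was 2-fold higher in the knockout and 2-fold lower in wild type. Mertk, a phagocytic receptor gene of microglia and astrocytes, had 43.6 CPM in KO SNI against 16.7 in KO naive and 28.8 CPM in WT SNI against 13.3 in WT naive. Its log2 ratios were 1.38 (1.02 to 1.75) in the knockout and 1.11 (0.57 to 1.68) in wild type, and other inhibitory nuclei had more of it, 62.1 CPM in KO SNI and 46.5 in WT SNI. Rps3a1, a ribosomal protein gene with many near-identical copies that could share its reads, had 63.8 CPM in KO SNI against 28.3 in KO naive and 51.0 CPM in WT SNI against 23.8 in WT naive. C1qa and C1qb, complement genes of microglia, followed: C1qb had 35.9 CPM in KO SNI against 7.94 in KO naive and 20.0 CPM in WT SNI against 10.2 in WT naive. Ctss, from the same class of cells, had log2 ratios of 2.64 (2.28 to 3.00) in the knockout and 0.97 (0.36 to 1.61) in wild type.

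Abundant cytoplasmic transcripts were higher after SNI in both genotypes. Of 25, 23 were higher in KO SNI than in KO naive, with a median log2 ratio of 0.55, and 22 were higher in WT SNI than in WT naive, with a median of 0.50. The median over all tested genes was 0.02 in each comparison, with 52.7% higher in KO SNI and 53% higher in WT SNI. Tmsb4x, which encodes the actin-binding thymosin beta 4, had 337 CPM in KO SNI against 200.3 in KO naive and 355 CPM in WT SNI against 164 in WT naive. Fth1, the ferritin heavy chain gene, had log2 ratios of 0.55 (0.44 to 0.66) in the knockout and 0.75 (0.62 to 0.88) in wild type, and Tuba1b, a tubulin gene, 0.82 (0.52 to 1.12) and 0.79 (0.40 to 1.19). The summed level of the list was 3415 CPM in KO SNI against 2519 in KO naive and 3622 CPM in WT SNI against 2573 in WT naive in members, and 4453, 3967, 5887 and 3430 CPM in other inhibitory nuclei for KO SNI, KO naive, WT SNI and WT naive. Such transcripts are also plentiful outside nuclei, and the part of carried-over cytoplasmic RNA was not tested. Mitochondrial UMIs, counted apart, were 0.350% of members' UMIs in KO SNI against 0.332% in KO naive, and 0.494% in WT SNI against 0.564% in WT naive.

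Marker lists of other classes differed in the same comparisons. The microglial markers had a median of 1.52 in KO SNI to KO naive, with 8 of 8 higher and 7 past 2-fold, which was 1.19 over 5 genes without the 5 subclusters, and 0.29 over 5 genes in WT SNI to WT naive. The oligodendrocyte markers had -0.35 in the knockout and 0.67 in wild type, and without the 5 subclusters -0.44 and 0.35, and the astrocyte markers had 0.35 over 6 genes and 1.04 over 3. The part of these cells in the other ratios was not tested.

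Of the chaperone genes, more were higher than lower after injury. Of 21 tested in the knockout 17 were higher in KO SNI than in KO naive, with a median of 0.10, and of 19 in wild type 16 were higher in WT SNI than in WT naive, with a median of 0.41. Hsp90aa1 had 228 CPM in KO SNI against 194 in KO naive and 229 CPM in WT SNI against 173 in WT naive. Immediate early genes, which neurons induce on strong activity, had few counts: of 22 listed, 6 could be compared in the knockout, with 4 higher and a median of 0.12, and 4 in wild type, with 3 higher and a median of 0.52. Egr1, the gene past 2-fold in wild type, had 11.2 CPM in KO SNI against 15.9 in KO naive, with a log2 ratio of -0.50 (-1.09 to 0.06), and 20.0 CPM in WT SNI against 9.46 in WT naive, with 1.08 (0.44 to 1.77).

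Genes lower after SNI in both genotypes were modest in size. Pkdcc led them, at 6.74 CPM in KO SNI against 12.4 in KO naive and 11.5 CPM in WT SNI against 21.7 in WT naive, with log2 ratios of -0.88 (-1.64 to -0.18) and -0.92 (-1.499 to -0.34). Zmym6 and Yars, a tyrosyl-tRNA synthetase gene, had more counts, with Zmym6 at -0.52 (-0.83 to -0.23) in the knockout and -0.78 (-1.10 to -0.47) in wild type. The transcription factor gene Foxp2 had -0.69 (-1.36 to -0.06) and -0.54 (-1.12 to 0.04). No gene was 2-fold lower in both (0 of 8457).

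Receptor and channel groups had medians near 0 after injury. Ionotropic glutamate receptor genes had medians of -0.04 over 21 genes in the knockout and -0.10 over 20 in wild type. Potassium channel genes had medians of -0.06 over 39 and -0.01 over 37, and GABA-A receptor genes of -0.08 over 13 and 0.03 over 12. Gphn, the gene of gephyrin, the scaffold of inhibitory synapses, had -0.27 (-0.34 to -0.20) in the knockout and -0.03 (-0.11 to 0.05) in wild type. Grm4, a metabotropic glutamate receptor gene, had 0.41 (0.06 to 0.76) and 0.46 (0.00 to 0.92). Npy, limited to fewer than 2 UMIs per member by the rule, had 0.59 (0.29 to 0.88) in the knockout and 0.32 (-0.01 to 0.66) in wild type.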

How the data were processed

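Per the labels, nuclei were isolated on a sucrose gradient and sequenced as 10x Genomics 3' libraries. The authors deposited raw UMI counts per gene and barcode; the file headers name Cell Ranger 7.0.0, and GRCm38, R 4.3.0 and Seurat 4.3.0 stand in the submitters' processing notes, which give no roles. Counts of the kept nuclei were summed per library and scaled to CPM without mitochondrial genes. Intervals are exact Poisson for levels, exact conditional binomial for log2 ratios and Clopper-Pearson for shares, at 95%. Genes were compared with at least 100 UMIs over a pair of libraries, and 2-fold was the limit for a count. Members were clustered with scanpy 1.11.5 (2000 variable genes, 30 components, 20 neighbours, Leiden resolution 0.8) without batch correction. Doublets were predicted with scrublet and kept, and their removal was an alternative. The comparison was tested on simulated data.

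Named genes were those of the rule, the 4 highest and up to 3 most shifted genes of each list, the 10 highest and 10 lowest per factor, and the 15 highest and 10 lowest against other inhibitory nuclei. Marker-list genes, leading genes of subclusters and genes past 2-fold in 1 comparison, such as Calca, were named after their values were seen. The members and lists were chosen with earlier results of these data known. Alternatives changed the rule's limits, depth, doublets, UMI minimum and scaling (TMM from edgeR 4.0.16). Gene coordinates and classes are those of GENCODE vM21, matched by identifier for 32158 of 32285 genes.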

Additional observations from a re-analysis of the deposited data

Results flagged for a closer look

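Among genes whose SNI to naive ratio ran one way in the knockout and the other way in wild type, these are the 5 with the largest ratios, ranked by the smaller of the 2. Smaller opposed ratios, as in Egr1, were not listed. The difference between the genotypes, knockout minus wild type, was not tested, since each group is 1 library. C030034I22Rik, a noncoding transcript, differed by 2.41 on the log2 scale, with 1.39 in the knockout and -1.03 in wild type. Gm47283, which lies on the Y chromosome, differed by -2.11, with -1.12 and 0.99. The sex of the mice is not given, so its part in this difference cannot be told apart. Srsf6, a splicing factor gene, differed by -1.79, with -0.85 and 0.94. Catspere2 differed by -2.34, with -1.502 in the knockout and 0.83 in wild type, and Tmem88b by -1.89, with -0.79 and 1.10. In each the KO naive and WT naive libraries also stood apart: Catspere2 had 147 CPM in KO naive against 56.0 in WT naive, and 52.0 CPM in KO SNI against 99.8 in WT SNI. Other inhibitory nuclei had 138 CPM of Catspere2 in KO naive against 57.0 in WT naive.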

How the results depend on the processing

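No paired analysis was possible because each group has 1 library. The set's share of inhibitory nuclei depended on the rule's limits. With at least 6 marker UMIs it was 12.6% in KO SNI, 10.0% in WT SNI, 14.2% in KO naive and 13.6% in WT naive, and with at least 2 gate UMIs 31.2%, 28.5%, 35.7% and 31.6% of the nuclei so gated. Thinned to 1500 UMIs, with shallower nuclei left out, it was 19.3%, 12.8%, 17.8% and 17.1% in that order of libraries. Without the 5 subclusters marked by other classes (chosen after seeing the data) it was 17.99%, 13.9%, 18.1% and 19.8%. With members of 2 or more glial UMIs left out it was 10.99% in KO SNI, 7.31% in WT SNI, 6.98% in KO naive and 11.3% in WT naive, so that KO naive and not WT SNI was lowest. Most stricter settings lowered the counts of genes past 2-fold and also the number of genes compared, but without predicted doublets the 29 of WT SNI to WT naive became 42 and the 20 of KO SNI to WT SNI 22, and with at least 2 gate UMIs the 29 became 33. Between KO SNI and WT SNI the 20 became 16 with at least 6 marker UMIs, 8 with at least 2 gate UMIs, 2 when thinned, 6 without glial UMIs, 12 without the 5 subclusters, 5 with at least 200 UMIs per gene and 4203 with no minimum. Between KO naive and WT naive the 298 became 180 with at least 6 marker UMIs, 124 with 2 gate UMIs, 49 when thinned, 106 without glial UMIs, 139 with 200 UMIs and 5518 with no minimum. Between KO SNI and KO naive the 188 became 97, 70, 27, 58, 68 and 5289 under the same settings. Between WT SNI and WT naive the 29 became 4 when thinned, 11 without glial UMIs, 12 without the 5 subclusters, 11 with 200 UMIs and 4684 with no minimum. The median of all genes was 0.10 between KO naive and WT naive when thinned and -0.16 with no minimum, and 0.15 between KO SNI and KO naive with no minimum. Some list medians changed sign. In KO SNI to WT SNI the gate genes were at -0.057 when thinned and the oligodendrocyte markers at 0.073 without glial UMIs. In KO naive to WT naive the inhibitory subtype genes were at 0.028 without glial UMIs. In WT SNI to WT naive the excitatory identity genes and the excitatory markers were each at -0.0065 without the 5 subclusters, the oligodendrocyte markers at -0.24 without glial UMIs and the microglial markers at -0.22 without predicted doublets. Acsbg1 in the set over other inhibitory nuclei of KO SNI was at 0.039 within the set's middle range of depth. Of the ratios of the set over other inhibitory nuclei that were checked in this range, 33 moved, 1 changed sign and 78 stayed. The cause of these changes was not tested. Counting each single-gene ratio once per alternative, 6730 moved by less than their counting interval and 858 by more. The alternatives of the UMI minimum cannot change a ratio, so their part of the 6730 was fixed in advance. When thinned, 347 ratios moved by more and 430 by less. With members of 2 or more glial UMIs left out, 176 moved by more and 601 by less.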
